A study of Mus musculus with 6 samples.

Results

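The 34 genes described here take part in the cellular response to low oxygen and in glycolysis, and they were examined in mouse tumours grown in hosts without tenascin-C. They were taken from a list of gene symbols, drawn up with earlier results of these data known, and a probe set, the group of short probes that reads one transcript, was assigned to a gene only if the platform annotation gave it that single symbol. Of the 34 genes, 31 were matched, by 66 probe sets that were tested and by 3 array control probe sets for Gapdh, and 30 of the 18193 genes tested were members. The other 3, Gpi1, Eno1 and Bnip3l, had no probe set with their symbol alone. Among the members tested, 11 were glycolytic enzymes, from hexokinase to lactate dehydrogenase, and 19 were other genes of the hypoxia response. Each gene is represented by its brightest probe set over the 6 arrays unless another is named.

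GLMT1 cells, a line derived from a lung metastasis of the GRS/A strain, were injected beneath the back skin of GRS/A males, and RNA of the tumours was read on 1-colour Affymetrix arrays. One group of hosts lacked tenascin-C, a glycoprotein of the extracellular matrix (TNKO, 3 tumours), and the other had it (WT, 3 tumours). The labels describe the tumours as biological replicates from 3 mice per group, with host ages of 8 weeks at use and 10 weeks in the sample labels. Both groups received the same tumour line, 1 line in all, so that the host alone differed in genotype, and the protocols describe no separation of tumour cells from host cells in the excised tissue. The values are on a scale taken as log2, but differences between arrays were shrunk far below those of usual arrays. They are therefore given in microunits, millionths of 1 deposited log2 unit, as deviations from the mean of the 6 arrays, and cannot be read as fold changes. A difference between groups is always TNKO minus WT, and is also given in residual SDs, the SD of tumours within their groups, because the size in microunits cannot be compared between genes.

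Cells sense oxygen through the alpha subunits of the hypoxia-inducible factors (HIFs), which are made continuously and, while oxygen is available, are hydroxylated on prolines and destroyed. When oxygen falls, the alpha subunit accumulates, pairs with ARNT and binds short DNA elements with the core ACGTG or GCGTG near its target genes. The targets include glucose transporters and most enzymes of glycolysis, which yields ATP without oxygen, and genes for blood vessel growth, acid export and collagen maturation. Solid tumours commonly contain regions of low oxygen, and many tumour cells also run glycolysis at a high rate in the presence of oxygen.

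To show where such cores lie, promoter windows that hold one are printed for the members with the smallest unadjusted p. A core in every printed window was thus fixed by the choice. Each window runs from 250 bases before to 50 bases after an annotated transcription start (RefSeq sequence, GRCm38.p6), 5′ to 3′ on the strand of the gene. Capitals mark ACGTG or GCGTG, or their reverse complements CACGT or CACGC, with overlapping matches counted separately. The Hk1 window is chr10:62340372-62340671 on the minus strand, at a start inside the gene as annotated, with 5 matches. The Slc2a1 window is chr4:119108495-119108794 on the plus strand, with 2 matches, and the Pgam1 window is chr19:41911621-41911920 on the plus strand, with 3 matches. The Vegfa window is chr17:46025114-46025413 on the minus strand, also at a start inside the gene, with 2 matches. Both Vegfa matches lie in bases that can be read as codons of the protein, and are not shown to be promoter elements. The windows at the outermost annotated starts of Hk1 and Vegfa held 0 matches.
Hk1: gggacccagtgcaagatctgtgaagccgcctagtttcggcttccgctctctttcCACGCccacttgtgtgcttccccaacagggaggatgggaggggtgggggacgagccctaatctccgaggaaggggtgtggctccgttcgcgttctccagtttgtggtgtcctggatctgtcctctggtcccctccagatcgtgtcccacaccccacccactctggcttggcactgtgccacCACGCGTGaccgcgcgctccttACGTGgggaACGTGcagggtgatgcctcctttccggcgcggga
Slc2a1: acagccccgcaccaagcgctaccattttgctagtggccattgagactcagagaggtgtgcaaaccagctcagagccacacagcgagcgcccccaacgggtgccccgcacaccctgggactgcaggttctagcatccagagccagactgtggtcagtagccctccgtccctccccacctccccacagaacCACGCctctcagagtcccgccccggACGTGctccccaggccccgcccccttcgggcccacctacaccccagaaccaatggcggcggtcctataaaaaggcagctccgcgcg
Pgam1: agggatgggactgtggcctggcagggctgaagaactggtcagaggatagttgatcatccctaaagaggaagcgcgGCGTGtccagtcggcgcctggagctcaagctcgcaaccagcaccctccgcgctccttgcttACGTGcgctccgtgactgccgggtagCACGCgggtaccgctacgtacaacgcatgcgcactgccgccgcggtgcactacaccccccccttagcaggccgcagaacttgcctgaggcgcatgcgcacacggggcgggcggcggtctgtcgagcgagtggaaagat
Vegfa: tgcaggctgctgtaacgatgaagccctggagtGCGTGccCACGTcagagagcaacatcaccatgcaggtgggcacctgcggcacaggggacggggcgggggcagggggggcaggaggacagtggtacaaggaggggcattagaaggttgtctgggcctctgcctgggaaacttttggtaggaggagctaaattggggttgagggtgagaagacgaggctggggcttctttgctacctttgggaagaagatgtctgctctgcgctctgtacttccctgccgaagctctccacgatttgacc
A core was present in the windows of 29 of the 32 members with a sequence (90.6%), against 12628 of all 27025 genes (46.7%). By window, the core was found in 19 of 24 windows of glycolytic enzymes (79.2%) and in 18 of 23 windows of the other members (78.3%), against 14380 of all 32851 windows (43.8%). A core this short is a match of letters and not an observed binding site.

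In TNKO tumours the hypoxia and glycolysis genes mostly had lower values than in WT tumours, but no single gene passed the test. The difference was below 0 in 26 of the 30 members, against 42.4% of all genes, and above 0 in 4, Tpi1, Hif1a, Pfkfb4 and Car9. The values of the groups did not overlap in 10 members, all lower in TNKO, against 11.1% of all genes that were lower without overlap. With limma and Benjamini-Hochberg adjustment over 45037 probe sets, 0 of 30 members passed an adjusted p of 0.05, against 0.121% of all genes, and the members' adjusted p ran between 0.131 and 0.993. At an unadjusted p under 0.05, 5 members were lower (Hk1, Slc2a1, Pgam1, Vegfa and Hk2), against 8.43% of all genes, and 0 were higher, against 9.99%. The median difference was -1.22 residual SDs over the members and 0.28 over all genes. Of the 9096 genes above the median level of 7.09, which included 27 of the 30 members, 55.8% were lower, 14.1% were lower at an unadjusted p under 0.05 and 17.9% were lower without overlap, with a median of -0.24 residual SDs. After quantile normalization or subtraction of array medians, all 30 members were lower, Tpi1, Hif1a, Pfkfb4 and Car9 included, as were 97.6% and 98.7% of all genes. Relative to the shifted median of all genes, 25 members were lower after quantile normalization, against 27 on the values as deposited. Median subtraction moves the difference of every gene by the same amount, so its count of 27 could not change.

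**Figure D1:**
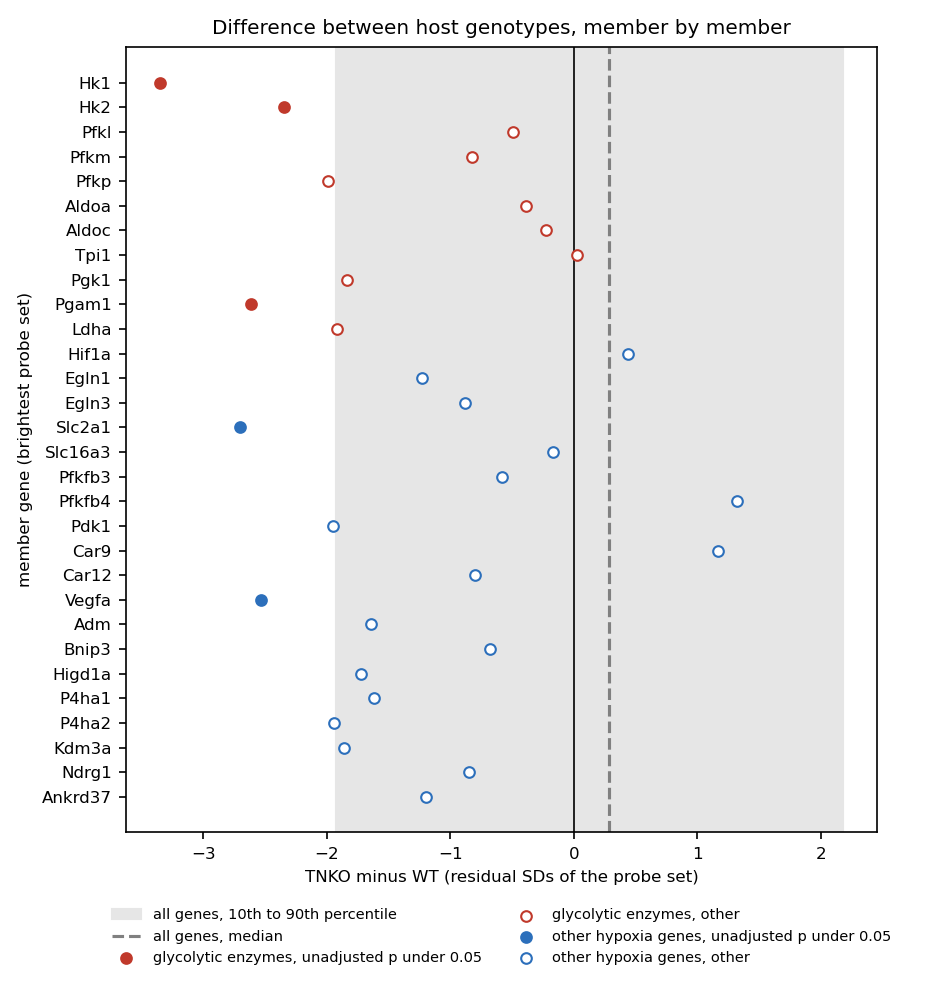
Difference between TNKO and WT tumours (x axis, in residual SDs) for each of the 30 members tested, glycolytic enzymes above and other hypoxia genes below, with the median of all genes and their 10th to 90th percentile marked. Of the 30 points, 26 lie below 0, while the middle of all genes lies at 0.28 and their 10th to 90th percentile spans -1.92 to 2.18.

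Both classes held more lower than higher values. The shares over all genes were 42.4% lower, 11.1% lower without overlap and 8.43% lower at an unadjusted p under 0.05. Of the 11 glycolytic enzymes, 10 were lower in TNKO tumours, 5 without overlap and 3 at an unadjusted p under 0.05, with a median of -1.84 residual SDs. Of the 19 other hypoxia genes, 16 were lower, 5 without overlap and 2 at an unadjusted p under 0.05, with a median of -1.20 residual SDs. In either class 0 genes passed an adjusted p of 0.05 by limma.

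Glycolysis opens with the hexokinases, which trap glucose in the cell as glucose 6-phosphate. Hk1, the form most tissues express (probe set 1437974_a_at, level 8.96), stood at -23.1, -22.2 and -38.7 microunits in TNKO tumours 1, 2 and 3, against 10.9, 20.7 and 52.5 microunits in WT tumours 1, 2 and 3. All TNKO tumours lay below all WT tumours, with means of -28.0 ± 9.29 microunits in TNKO tumours and 28.0 ± 21.8 microunits in WT tumours (SD, n = 3 each). The difference of -56.0 microunits, ± 12.8 microunits (SE), or -3.35 residual SDs, had the smallest unadjusted p of the members (0.00869) and an adjusted p of 0.131 by limma. In a dimmer Hk1 probe set (1420901_a_at, level 6.39) the groups overlapped (-1.40 residual SDs, unadjusted p = 0.132 and adjusted p = 0.385 by limma). Hk2 (1422612_at, level 9.15), the inducible form prominent in many tumours, stood at -64.2, -417 and -91.0 microunits in TNKO tumours 1, 2 and 3, against 124, 120.2 and 328 microunits in WT tumours 1, 2 and 3. The groups were separate in Hk2, with means of -191 ± 197 microunits in TNKO tumours and 191 ± 119 microunits in WT tumours (SD, n = 3 each). TNKO tumour 2 and WT tumour 3 were the most distant. The difference in Hk2 was -382 microunits, ± 124 microunits (SE), or -2.35 residual SDs (unadjusted p = 0.031, adjusted p = 0.204).

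Phosphofructokinase commits sugar to the pathway. Its platelet-type subunit Pfkp (1416069_at, level 9.15) stood at 1.18, -18.9 and -12.1 microunits in TNKO tumours 1, 2 and 3, against -0.503, 11.4 and 18.9 microunits in WT tumours 1, 2 and 3. TNKO tumour 1 overlapped WT tumour 1, and the difference was -19.9 microunits, ± 7.63 microunits (SE) (-1.99 residual SDs, adjusted p = 0.251). A dimmer Pfkp probe set (1430634_a_at, level 6.48) stood at -166, -102 and -230.2 microunits in TNKO tumours 1, 2 and 3, against 144, 64.3 and 290.3 microunits in WT tumours 1, 2 and 3. There the groups did not overlap, with -3.59 residual SDs and an adjusted p of 0.121. The liver-type subunit Pfkl (level 7.82) differed by -4.13 microunits (-0.49 residual SDs), with overlapping groups. The muscle-type subunit Pfkm (level 8.68) stood at -54.3, -59.7 and 52.8 microunits in TNKO tumours 1, 2 and 3, against 1.51, 53.8 and 5.83 microunits in WT tumours 1, 2 and 3. Its lowest values were those of TNKO tumours 1 and 2, and its difference was -40.8 microunits (-0.83 residual SDs, adjusted p = 0.605).

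The tumours low in Pfkm were also low in skeletal muscle genes. All 16 skeletal muscle markers measured had lower mean values in TNKO tumours, against 42.4% of all genes. At an unadjusted p under 0.05 by limma 0 of them were lower, against 8.43% of all genes. Without overlap 1 was lower (6.25%), against 11.1%. The mean level of these markers ran between 6.47 and 7.02 in TNKO tumours and between 6.89 and 7.04 in WT tumours. TNKO tumours 1 and 2 were lowest in the muscle list, at -1.31 and -1.10 SDs, and TNKO tumour 3 stood at 0.90 SDs. The muscle isoenzymes Pgam2 and Eno3, which are not members, had the same 2 tumours at the bottom, Pgam2 with -4791, -3998 and 2023 microunits in TNKO tumours 1, 2 and 3, against 2374, 3588 and 804 microunits in WT tumours 1, 2 and 3. In WT tumour 3 the muscle markers averaged 0.18 SDs and the members 1.05 SDs. The part of muscle content in the Pfkm values was not tested. In bulk tumour RNA, fewer cells of a type and less RNA per cell cannot be told apart.

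The aldolases, which split fructose bisphosphate, had small differences relative to their spread. Aldoa (level 12.20) gave -7.10 microunits (-0.39 residual SDs, adjusted p = 0.829) and Aldoc (level 7.08) gave -1.78 microunits (-0.23 residual SDs, adjusted p = 0.906). The Aldoa probe sets are of a type that can bind related transcripts. Tpi1, triosephosphate isomerase (1415918_a_at, level 11.85), was the 1 glycolytic enzyme with a value above 0. It stood at 3.88, -5.21 and 1.57 microunits in TNKO tumours 1, 2 and 3, against -5.89, -4.31 and 9.97 microunits in WT tumours 1, 2 and 3. The groups overlapped throughout, the difference was 0.157 microunits ± 5.36 microunits (SE), and 2 of its 3 probe sets were lower in TNKO tumours.

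In the second stage of glycolysis, which pays back ATP, 3 further enzymes were separate between groups in their brightest probe sets. Pgk1, phosphoglycerate kinase (level 12.49), stood at -3.23, -13.2 and -0.0150 microunits in TNKO tumours 1, 2 and 3, against 2.29, 3.08 and 11.1 microunits in WT tumours 1, 2 and 3. Its difference was -11.0 microunits (-1.84 residual SDs, adjusted p = 0.279), with TNKO tumour 3 close to the WT values. In the dimmer Pgk1 probe sets 1438640_x_at and 1439435_x_at the groups overlapped (-0.91 and -1.07 residual SDs, adjusted p = 0.567 and 0.5 by limma). Pgam1, phosphoglycerate mutase (1426554_a_at, level 11.76), stood at -7.58, -7.62 and -5.53 microunits in TNKO tumours 1, 2 and 3, against 5.36, 0.428 and 14.9 microunits in WT tumours 1, 2 and 3. The TNKO tumours lay close together while the WT tumours spread, with means of -6.91 ± 1.20 microunits in TNKO tumours and 6.91 ± 7.38 microunits in WT tumours (SD, n = 3 each). The difference in Pgam1 was -13.8 microunits, ± 4.04 microunits (SE), or -2.61 residual SDs (unadjusted p = 0.0216, adjusted p = 0.178). Ldha, the lactate dehydrogenase subunit that favours making lactate from pyruvate (level 12.12), stood at -0.678, -7.52 and -4.94 microunits in TNKO tumours 1, 2 and 3, against 1.12, 1.33 and 10.7 microunits in WT tumours 1, 2 and 3. WT tumour 3 stood far above the rest, and the difference was -8.76 microunits (-1.92 residual SDs, adjusted p = 0.264).

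Gapdh, which links the stages, was read under its symbol alone only by control probe sets placed along the transcript and was left out of the test. At the 5′ end it stood at -46.1, -39.6 and -19.1 microunits in TNKO tumours 1, 2 and 3, against 35.1, 16.1 and 53.6 microunits in WT tumours 1, 2 and 3. Every TNKO tumour was below every WT tumour there (-4.22 residual SDs), as in the middle probe set (-3.27 residual SDs). At the 3′ end, where labelling begins, the groups overlapped and the difference was -1.32 residual SDs. Probe sets at the ends of a control transcript are a usual check of RNA quality, and the part of RNA quality in the members' values was not tested.

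**Figure D2:**
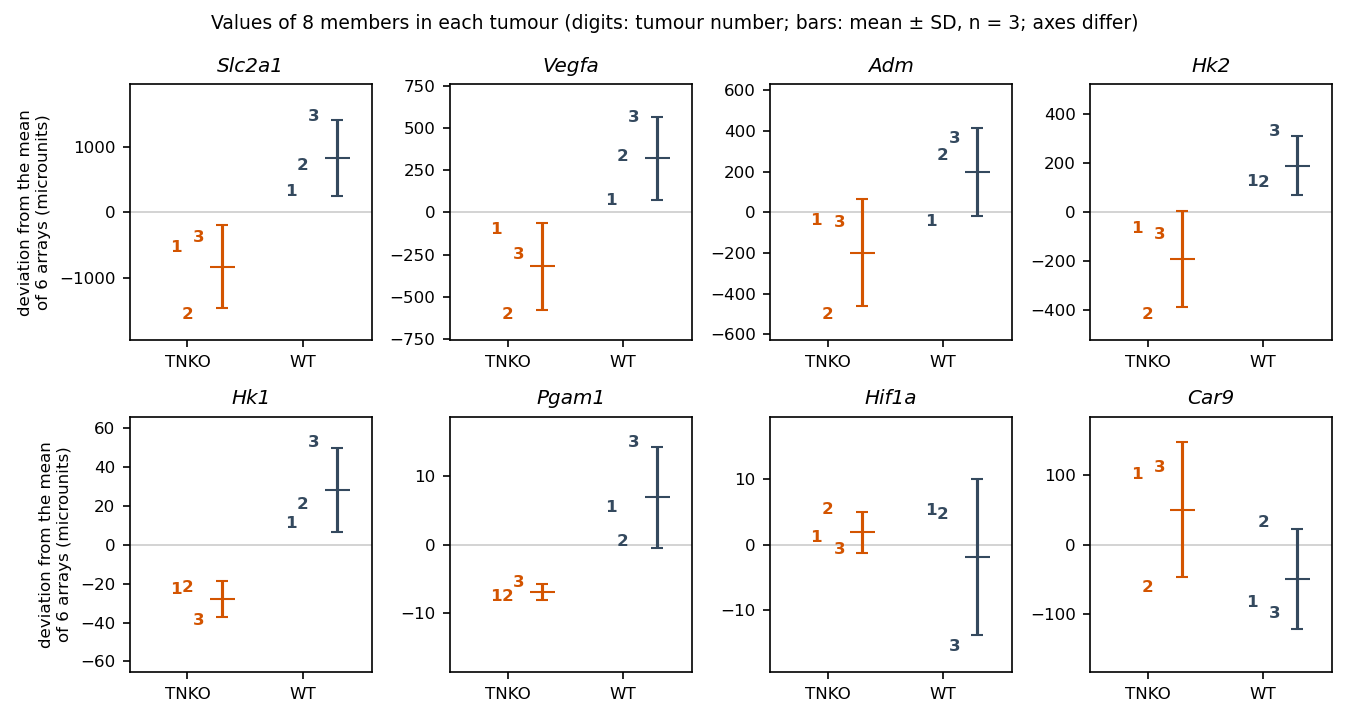
Values of selected members in each tumour (y axis, microunits from the mean of the 6 arrays, with a scale of its own in each panel), TNKO left and WT right, with digits for the tumour number and bars for the group mean and SD (n = 3). TNKO values lie below all WT values in Hk1, Hk2, Pgam1, Slc2a1 and Vegfa, and the groups overlap in Adm, Hif1a and Car9, the last 2 with a higher TNKO mean as deposited and a lower one after either rescaling.

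Among the oxygen sensors, Hif1a, the regulated alpha subunit (1427418_a_at, level 10.47), stood at 1.10, 5.35 and -0.750 microunits in TNKO tumours 1, 2 and 3, against 5.21, 4.65 and -15.6 microunits in WT tumours 1, 2 and 3. The groups overlapped, and WT tumour 3, the highest in most members, was the lowest here. The difference was 3.80 microunits ± 6.61 microunits (SE) (0.44 residual SDs, adjusted p = 0.801) for this probe set. A second Hif1a probe set (1416035_at, level 8.44) stood at 6.10, 7.75 and 14.01 microunits in TNKO tumours 1, 2 and 3, against -3.68, 5.09 and -29.3 microunits in WT tumours 1, 2 and 3. There every TNKO tumour was above every WT tumour (1.43 residual SDs, adjusted p = 0.375). Of the 4 Hif1a probe sets, 1 was lower in TNKO tumours and 3 were higher. HIF-1 alpha is controlled mainly as a protein, which arrays do not measure. The prolyl hydroxylases that mark it for destruction are themselves hypoxia targets. Egln1 (level 9.71) differed by -13.9 microunits (-1.23 residual SDs, adjusted p = 0.439). Egln3 (level 7.30) stood at 114, -592 and 61.4 microunits in TNKO tumours 1, 2 and 3, against -32.8, 76.3 and 373 microunits in WT tumours 1, 2 and 3. A single tumour, TNKO 2, was far below the others, and the difference was -278 microunits (-0.88 residual SDs, adjusted p = 0.58). In a dimmer Egln3 probe set (1418648_at, level 6.21) the groups were separate, with TNKO tumour 1 the lowest (-2.97 residual SDs, adjusted p = 0.151 by limma).

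The glucose transporter Slc2a1 (GLUT1) brings glucose into most cells. Its brightest probe set (1434773_a_at, level 10.48) stood at -540.2, -1563 and -384 microunits in TNKO tumours 1, 2 and 3, against 312, 714 and 1461 microunits in WT tumours 1, 2 and 3. All TNKO tumours were lower than all WT tumours, with means of -829 ± 640.5 microunits in TNKO tumours and 829 ± 583 microunits in WT tumours (SD, n = 3 each). The difference was -1659 microunits, ± 467 microunits (SE), or -2.71 residual SDs (unadjusted p = 0.019, adjusted p = 0.171). The other 2 Slc2a1 probe sets differed by -1992 microunits and -1000.3 microunits, also without overlap. The lactate exporter Slc16a3 (MCT4), whose level of 6.49 lay below the median gene, differed by -0.221 microunits (-0.17 residual SDs, adjusted p = 0.936).

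The regulatory kinases steer glycolytic flux without being part of the main chain. Pdk1, which inhibits pyruvate dehydrogenase in mitochondria (1423747_a_at, level 9.65), stood at -111, -145 and 22.9 microunits in TNKO tumours 1, 2 and 3, against 2.20, 92.5 and 138 microunits in WT tumours 1, 2 and 3. TNKO tumour 3 overlapped the WT tumours, the difference was -155 microunits ± 60.6 microunits (SE) (-1.95 residual SDs, adjusted p = 0.257), and all 4 Pdk1 probe sets were lower. Pfkfb3 and Pfkfb4 make and remove the sugar bisphosphate that activates phosphofructokinase. Pfkfb3 (level 7.37) differed by -18.3 microunits (-0.58 residual SDs, adjusted p = 0.727). Pfkfb4 (1456888_at, level 7.75) stood at -0.209, 0.185 and 2.67 microunits in TNKO tumours 1, 2 and 3, against -1.23, -1.73 and 0.315 microunits in WT tumours 1, 2 and 3. It was higher in TNKO tumours by 1.77 microunits (1.32 residual SDs, adjusted p = 0.418), with overlapping groups.

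The carbonic anhydrases at the cell surface, which help to dispose of acid, both had overlapping groups. Car9, a widely used marker of hypoxia (1427013_at, level 7.08), stood at 102, -62.4 and 111 microunits in TNKO tumours 1, 2 and 3, against -83.5, 32.4 and -99.4 microunits in WT tumours 1, 2 and 3. TNKO tumours 1 and 3 were the highest of the 6 and TNKO tumour 2 lay among the WT tumours. The difference was 100.3 microunits ± 65.4 microunits (SE) (1.17 residual SDs, adjusted p = 0.46). The level of Car9 lay just below the median gene. Car12 (level 8.95) differed by -45.4 microunits (-0.80 residual SDs, adjusted p = 0.616), with overlap.

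Both secreted peptides were lower in TNKO tumours. Vegfa, the growth factor that drives blood vessel sprouting (1420909_at, level 8.06), stood at -104, -605 and -249.99 microunits in TNKO tumours 1, 2 and 3, against 67.8, 332 and 559 microunits in WT tumours 1, 2 and 3. The groups were separate, with means of -319.6 ± 258 microunits in TNKO tumours and 319.6 ± 246 microunits in WT tumours (SD, n = 3 each). The difference was -639 microunits, ± 192 microunits (SE), or -2.54 residual SDs (unadjusted p = 0.0239, adjusted p = 0.185). Adm, the vasodilator adrenomedullin (1447839_x_at, level 10.59), stood at -39.2, -503 and -51.7 microunits in TNKO tumours 1, 2 and 3, against -47.1, 278 and 363 microunits in WT tumours 1, 2 and 3. WT tumour 1 overlapped the TNKO tumours and TNKO tumour 2 was far below the rest, with a difference of -396 microunits ± 184 microunits (SE) (-1.64 residual SDs, adjusted p = 0.322). In the second Adm probe set (1416077_at), at -123, -1145 and -459 microunits in TNKO tumours 1, 2 and 3, against 155, 611 and 961 microunits in WT tumours 1, 2 and 3, the groups were separate (-2.47 residual SDs, adjusted p = 0.191). All 10 endothelial markers had higher mean values in TNKO tumours, 2 of them at an unadjusted p under 0.05, against 57.6% and 9.99% of all genes. Scaled to their SD over the arrays, they averaged 1.27, 0.52 and -0.28 in TNKO tumours 1, 2 and 3, against 0.00, -0.13 and -1.38 in WT tumours 1, 2 and 3, with a mean level of 7.06 in every tumour. The part of vessel content in the Vegfa and Adm values was not tested.

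Of the genes that act on mitochondria, Bnip3, a receptor for their removal by autophagy (level 11.40), differed by -62.1 microunits (-0.67 residual SDs, adjusted p = 0.681), with overlap. Higd1a, a small protein of the inner mitochondrial membrane (level 11.07), stood at -4.21, -57.3 and -24.3 microunits in TNKO tumours 1, 2 and 3, against 11.6, 1.67 and 72.6 microunits in WT tumours 1, 2 and 3. Every TNKO tumour was below every WT tumour (-1.73 residual SDs, adjusted p = 0.302), and the TNKO mean was lower in all 3 Higd1a probe sets. Bnip3l was read only by probe sets shared with its pseudogene, which differed by -44.0, 4.65 and -151 microunits and are assigned to neither.

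The collagen prolyl hydroxylases modify procollagen so that its triple helix is stable. P4ha2 (1417149_at, level 9.84) stood at -39.6, -42.8 and -68.5 microunits in TNKO tumours 1, 2 and 3, against 0.962, 17.6 and 132 microunits in WT tumours 1, 2 and 3. TNKO tumours lay below all WT tumours, and WT tumour 3 was far above the rest. The difference was -101 microunits ± 39.5 microunits (SE) (-1.94 residual SDs, adjusted p = 0.259). P4ha1 (level 10.02) differed by -20.0 microunits (-1.62 residual SDs, adjusted p = 0.328), with overlap. A dimmer P4ha1 probe set (1426519_at, level 7.18) stood at -1543, -1613 and -3271 microunits in TNKO tumours 1, 2 and 3, against 2647, 387 and 3393 microunits in WT tumours 1, 2 and 3. There the groups were separate (-3.28 residual SDs, unadjusted p = 0.00938, adjusted p = 0.134).

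Of the remaining members, Kdm3a, a histone demethylase that needs oxygen (level 9.05), stood at -27.9, -89.6 and 8.86 microunits in TNKO tumours 1, 2 and 3, against 13.3, 35.3 and 60.0 microunits in WT tumours 1, 2 and 3. The groups were narrowly separate, with a difference of -72.4 microunits (-1.86 residual SDs, adjusted p = 0.274). Ndrg1, a stress-responsive gene of differentiation (level 11.28), differed by -149 microunits (-0.85 residual SDs, adjusted p = 0.595). Its groups overlapped, although all 5 Ndrg1 probe sets were lower on average. The dimmer Ndrg1 probe sets 1423413_at and 1450977_s_at had separate groups (-2.07 and -2.34 residual SDs, adjusted p = 0.238 and 0.205 by limma). Ankrd37, a HIF target with ankyrin repeats (level 7.93), differed by -136 microunits (-1.20 residual SDs, adjusted p = 0.449), with overlap.

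Taking every probe set of the members, 57 of 66 were lower in TNKO tumours, against 45.5% of all probe sets, and 24 were lower without overlap, against 13.8%. A single member probe set, the second of Hif1a, was higher without overlap, against 14.2% of all probe sets (1 of 66). At an unadjusted p under 0.05, 15 were lower, against 10.8%, and 0 were higher. By limma's adjusted p, 0 of 66 passed, against 0.175% of all probe sets. Of the 19 members with several probe sets, 14 had all of them below 0. Aldoa, Car12, Hif1a, Pfkfb3 and Tpi1 had probe sets on both sides of 0. Probe sets of 1 gene share their RNA and are not replicates. When the probe sets of a gene were averaged, 10 of 30 members were lower at an unadjusted p under 0.05, against 13.1% of all genes.

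**Figure D3:**
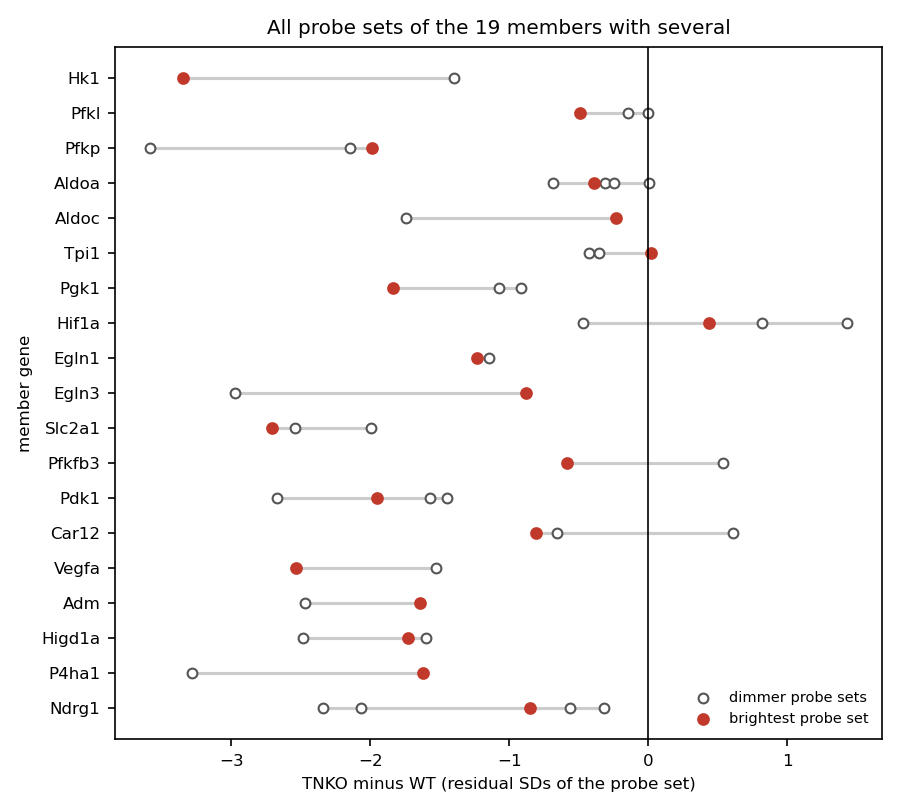
Difference between TNKO and WT tumours (x axis, in residual SDs) for every probe set of the 19 members with several, 1 line of points per gene, with the brightest probe set filled. In 14 of the 19 genes all points lie below 0, and the 3 of Slc2a1 lie between -2.71 and -1.99.

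The differences were carried unequally by the tumours. WT tumour 3 had the highest of the 6 values in 23 of the 30 members (76.7%), against 18.5% of all genes and 25.9% of genes above the median level. TNKO tumour 2 had the lowest value in 20 members (66.7%), against 14.7% of all genes and 19.1% of those above the median level. Both held in 17 members (56.7%), against 5.27% of all genes. With each gene scaled to the SD over the 6 arrays, the members averaged -0.05, -1.12 and -0.10 in TNKO tumours 1, 2 and 3, against -0.01, 0.24 and 1.05 in WT tumours 1, 2 and 3. TNKO tumours 1 and 3 and WT tumour 1 lay close to each other. The glycolytic enzymes averaged -1.28 in TNKO tumour 2 and 1.24 in WT tumour 3, and the other hypoxia genes -1.03 and 0.94.

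**Figure D4:**
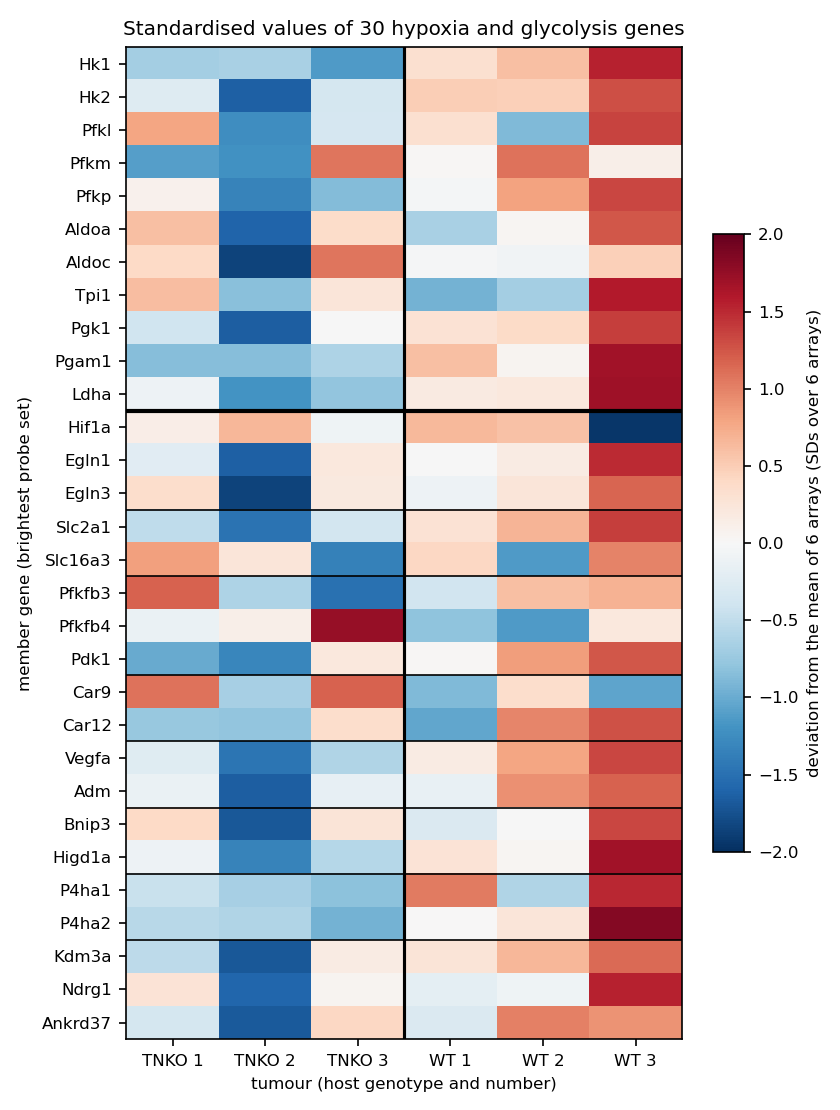
Standardised value (colour, in SDs over the 6 arrays) of each member tested, by gene down the page and by tumour across it, TNKO tumours left of WT tumours. TNKO tumour 2 is the lowest of the 6 in 20 members and WT tumour 3 the highest in 23, while Hif1a and Car9 are lowest in WT tumour 3.

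Without TNKO tumour 2 and WT tumour 3, which were chosen for this after their values were seen, 20 of 30 members were lower in TNKO tumours, against 44.3% of all genes. Of the glycolytic enzymes 7 of 11 were lower, and of the others 13 of 19. TNKO tumours 1 and 3 were both below WT tumours 1 and 2 in 11 members (36.7%), against 18.7% of all genes: Hk1, Hk2, Pgk1, Pgam1, Ldha, Hif1a, Slc2a1, Vegfa, Higd1a, P4ha2 and Kdm3a. Slc2a1 then differed by -975 microunits, against -1659 in all 6 tumours, and Hk1 by -46.7, against -56.0. Pfkl, Aldoa, Aldoc, Egln3, Slc16a3, Bnip3 and Ndrg1 then had differences above 0, and Hif1a one below 0. No member passed an adjusted p of 0.05 in limma in that fit.

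Tnc, the gene that the TNKO hosts lack, had levels of 8.797, 8.822 and 8.832 in TNKO tumours 1, 2 and 3, against 9.014, 9.043 and 8.995 in WT tumours 1, 2 and 3, a difference of -9.37 residual SDs with an adjusted p of 0.0537 by limma. The tumour cells had no stated change in this gene. Epithelial markers were measured for 9 genes, of which Krt8 (11.45), Krt18 (8.92) and Cdh1 (7.48) lay above the median gene, and 5 were lower and 4 higher in TNKO tumours. Adipocyte markers were higher in TNKO tumours in 8 of 8, with a mean level between 6.93 and 7.24 in TNKO tumours and between 6.77 and 7.00 in WT tumours, with TNKO tumour 1 at the top and WT tumour 3 at the bottom. The TNKO means were higher in 7 of 7 neutrophil, 7 of 8 fibroblast, 6 of 8 macrophage, 5 of 6 T cell, 3 of 4 erythroid and 6 of 7 proliferation markers, against 57.6% of all genes. Of the neutrophil markers, 4 were higher at an unadjusted p under 0.05, against 9.99% of all genes, and 4 were higher without overlap, against 15%. Fibroblast markers averaged 0.64 SDs in TNKO tumour 2, their highest, and -1.21 SDs in WT tumour 3, their lowest. Proliferation markers likewise averaged 1.03 SDs in TNKO tumour 2 and -1.02 SDs in WT tumour 3. On average both lists were thus at opposite ends to the members in the tumours where the members stood lowest and highest. Dcn, the fibroblast marker that was lower in TNKO tumours, was instead highest in WT tumour 3. Its groups were separate (-4.11 residual SDs, adjusted p = 0.104 by limma). Of 9 hair and epidermis markers 5 were higher, and their mean level was 7.70 in TNKO tumour 3 alone and between 6.84 and 6.86 in the others. Among them the hair gene Krtap8-1 had a level of 12.60 in TNKO tumour 3, against 5.95 to 6.15 in the other tumours. While 5 of the 9 were highest in TNKO tumour 3, Krt14, Krt10, Krt1 and Lor were highest in WT tumour 3. The list averaged 1.01 SDs in TNKO tumour 3 and 0.62 SDs in WT tumour 3. Of the array's hybridisation controls, which are added RNAs, 18 of 18 were higher in TNKO arrays, 16 of them without overlap. The array median was 6.5698 in TNKO tumour 3 and between 6.5674 and 6.5676 in the other 5 arrays, an offset of more microunits than the difference of any member's brightest probe set. The parts of these in the members' differences were not tested.

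**Figure D5:**
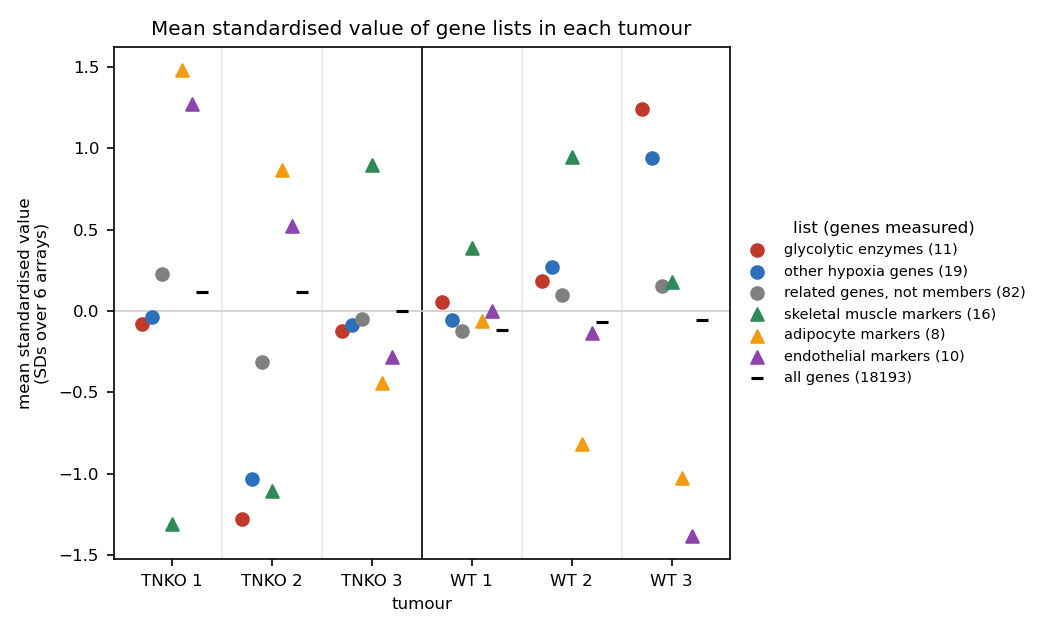
Mean standardised value (y axis, in SDs over the 6 arrays) of gene lists in each tumour (x axis), TNKO tumours left and WT tumours right. Glycolytic enzymes and other hypoxia genes are lowest in TNKO tumour 2 (-1.28 and -1.03) and highest in WT tumour 3 (1.24 and 0.94), while endothelial and adipocyte markers are lowest in WT tumour 3 (-1.38 and -1.02).

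Related genes that are not members lay on both sides of 0. Of 88 listed genes of glycolysis, HIF control, hypoxia response and sugar metabolism, 82 were measured, with 45 lower and 37 higher in TNKO tumours and a median of -0.26 residual SDs. The 45 were 54.9% of the list, against 42.4% of all genes. None of the 82 passed an adjusted p of 0.05 by limma (0 called), and at an unadjusted p under 0.05 there were 8 lower (9.76%, against 8.43% of all genes) and 2 higher. Other hypoxia targets gave 22 lower and 14 higher of 36, other genes of glycolysis and lactate 14 lower and 12 higher of 26, HIF pathway regulators 6 lower and 6 higher of 12, and glycogen and pentose genes 3 lower and 5 higher of 8. WT tumour 3 was the highest in 25 and TNKO tumour 2 the lowest in 25 of the 82 (30.5% each, against 18.5% and 14.7% of all genes and 25.9% and 19.1% of those above the median level), with both in 15.

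The 6 related genes with the smallest unadjusted p all had separate groups, which a choice by p favours. Of all 82 measured, 11 were lower without overlap (13.4%) and 9 higher without overlap, against 11.1% and 15% of all genes. Ddit4, an inhibitor of mTOR signalling induced by hypoxia, stood at -94.6, -87.3 and -30.2 microunits in TNKO tumours 1, 2 and 3, against 22.5, 78.9 and 111 microunits in WT tumours 1, 2 and 3. Every TNKO tumour was below every WT tumour (-3.51 residual SDs, adjusted p = 0.123). Ero1a, the endoplasmic reticulum oxidase that drives disulfide formation, stood at -176, -666 and -332 microunits in TNKO tumours 1, 2 and 3, against 288, 119.6 and 766 microunits in WT tumours 1, 2 and 3. WT tumour 3 was again the highest and TNKO tumour 2 the lowest (-2.65 residual SDs, adjusted p = 0.176). The transferrin receptor Tfrc, which brings iron into cells, differed by -26.4 microunits (-2.87 residual SDs, adjusted p = 0.158), and Bpgm, which makes 2,3-bisphosphoglycerate, by -245 microunits (-3.35 residual SDs, adjusted p = 0.131).

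On the other side were 2 transporters, Slc16a7 and Slc2a4, whose levels of 6.17 and 6.95 lay below the median gene (7.09). Slc16a7 (MCT2), a high-affinity carrier of lactate and pyruvate, stood at 8.39, 3.67 and 2.75 microunits in TNKO tumours 1, 2 and 3, against -4.57, -4.11 and -6.14 microunits in WT tumours 1, 2 and 3. Every TNKO tumour was above every WT tumour (4.35 residual SDs, unadjusted p = 0.00317, adjusted p = 0.1). Slc2a4 (GLUT4), the insulin-regulated glucose transporter of fat and muscle, stood at 14.4, 0.716 and 4.68 microunits in TNKO tumours 1, 2 and 3, against -6.05, -4.85 and -8.90 microunits in WT tumours 1, 2 and 3. The groups were separate here too (2.54 residual SDs, adjusted p = 0.185). In both, the top value belonged to TNKO tumour 1 and the bottom value to WT tumour 3, as in the adipocyte markers, which averaged 1.48 SDs in TNKO tumour 1 and -1.02 SDs in WT tumour 3. The endothelial markers had the same order, with 1.27 SDs in TNKO tumour 1 and -1.38 SDs in WT tumour 3. The parts of adipocyte and vessel content in the values of the transporters were not tested.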

How the data were processed

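The authors processed the arrays to 1 log2 value per probe set before deposit, for 45101 probe sets on 6 arrays, with the log2 scale taken from the range of the values. The software was R 2.7.2, per the submitters' processing notes, and the method of summarization, the normalization and the log base are not stated in the sources used here. Per the labels' protocols, 100 ng of RNA was labelled with biotin. The number of arrays limits the precision.

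Of the probe sets, 64 controls were left out, and limma 3.58.1 (R 4.3.3) gave TNKO minus WT for the other 45037. The linear fit was moderated by eBayes with its default settings, tests were two-sided, and Benjamini-Hochberg adjustment covered all of them, with a threshold of 0.05. Summaries used Python 3.11.15 and pandas 2.3.3. An exact permutation test of 3 against 3 cannot go below 0.1 and was not used. Gene symbols came from the platform annotation (2016); 34945 probe sets had 1 symbol, 932 several and 9160 none, and a check against RefSeq gene identifiers changed 0. Array pairs shared 21 to 43 identical values, so none was a copy of another. The fit was tested on simulated data with planted differences larger than that of any member in residual SDs. Differences of the members' size were not covered by it.

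The members, lists and tests were chosen with earlier results of these data known. Values per tumour are given for any member past the adjusted threshold (none), the 8 members with the smallest unadjusted p, the 3 largest differences in microunits (a size that depends on the probe set), those above 0 and Hif1a. The related list names the 6 smallest p, and promoters up to 4 of the 8, in order of p, with a window that holds a core. Values of other members, of second probe sets and of Pgam2 were added after they were seen.

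Same-numbered tumours of the groups did not deviate together (correlations of 0.0289, -0.0157 and 0.00531 over 45036 probe sets), so the numbers were not taken as pairs. Alternatives were subtraction of array medians, quantile normalization, a filter at the median level, eBayes with a trend, robust or without moderation, array weights, gene means over probe sets, another border between the 2 classes, a replicate block, and leaving out each tumour. Leaving out TNKO tumour 2 and WT tumour 3 together was added after the data were seen.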

Additional observations from a re-analysis of the deposited data

How the results depend on the processing

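No member passed an adjusted p of 0.05 in limma in any alternative (0 of 30; lowest adjusted p 0.0836, P4ha1 without WT tumour 2, with a range of 0.0836 to 0.99 over its alternatives). Between 24 and 27 members were lower when 1 tumour was left out, of which 3 to 7 at an unadjusted p under 0.05, with 2 to 3 for glycolytic enzymes and 1 to 5 for the others. The 79 probe sets called over the array became 2 without moderation, 285 with the filter at the median level, 0 after quantile normalization, 0 with the replicate block, 0 to 73 without 1 tumour and 0 without both TNKO tumour 2 and WT tumour 3. The 9144 at an unadjusted p under 0.05 became 5420 with the filter, 591 after quantile normalization, 87 after median subtraction, 5225 without both tumours and 6807 to 8443 without 1. The 5 members lower at an unadjusted p under 0.05 became 10 with gene means, of which 6 other hypoxia genes, 3 after quantile normalization, with 0 glycolytic enzymes, and 0 after median subtraction in either class. The other border between the classes left 1 other hypoxia gene. Of the related genes, 77 were lower after quantile normalization, 78 after median subtraction and 41 to 46 without 1 tumour. Their 8 at an unadjusted p under 0.05 became 2, 0 and 4 to 9 there, 4 with the replicate block and 4 without both tumours. The replicate block left 6 members lower at an unadjusted p under 0.05. The shares of all genes lower at that p were 7.11% with the block, 13.1% with gene means, 1.81% after quantile normalization, 0.0605% after median subtraction and 6.15% to 7.65% without 1 tumour. Members higher at that p were Pfkfb4 with the block, Car9 without TNKO tumour 2 and Tpi1 without both tumours.

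Both rescalings moved the median difference of all genes, to -560 microunits with quantiles and -764 with medians against 0.200 as deposited. Below it lay 25 of 30 members with quantiles, against 27 as deposited. With medians the count was 27, which a common shift of all genes cannot change. Members that changed sign there were Tpi1 (-1230 and -764), Hif1a (-1071 and -760), Pfkfb4 (-247 and -762) and Car9 (-378 and -664). Tpi1 was -1.71 with gene means. Without both tumours the sign changed for Pfkl (4.02), Aldoa (13.3), Aldoc (5.51), Hif1a (-4.76), Egln3 (65.9), Slc16a3 (0.102), Bnip3 (42.4) and Ndrg1 (52.8). Without 1 tumour the range crossed 0 for Pfkl (-8.65 to 0.147), Aldoa (-14.3 to 4.62), Aldoc (-5.98 to 4.28), Tpi1 (-2.75 to 5.18), Hif1a (-3.03 to 7.36) and Slc16a3 (-0.931 to 0.512). The causes were not tested. With 3 tumours per group and an unstated scaling, a missed threshold does not show that values did not differ.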
